A study of Saccharomyces cerevisiae with 64 samples.

Results

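The peaks of the Set1 complex, the enzyme that methylates lysine 4 of histone H3 (H3K4), were examined at 9 genes of acetate use in budding yeast, in peak lists from chromatin immunoprecipitation and sequencing (ChIP-seq). The genes were ADY2, ATO2, ATO3, SFC1, CRC1, CAT2, YAT1, YAT2 and OAC1, which are 9 of 6002 nuclear protein-coding genes, and they were grouped by their known function, with earlier results of these data known. A gene was called occupied in a library when a deposited peak had its midpoint between 500 bp before the coding start and the end of the coding region. Peaks were described by their midpoint, as a distance from the coding start, by their width, and by the percent of the coding region they covered. Coverage was added as a measure once the data had been seen.

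Diploid SK1 yeast, a strain that sporulates fast, was taken from pre-sporulation medium (SPS) and then at 0, 2, 4 and 6 h after transfer to sporulation medium (SPM), which is dilute potassium acetate. In the first set of strains both copies of a gene carried a 13xmyc tag and an anti-myc antibody was used: SPP1-13xmyc, BRE2-13xmyc, spp1PHDΔ-13xmyc and spp1CXXCΔ-13xmyc, with 1 library for SPS and 1 for each SPM time, and all 4 strains were heterozygous at LEU2 and HIS4 and homozygous trp1 and ura3. Spp1 and Bre2 are subunits of the Set1 complex, and PHDΔ and CXXCΔ remove the PHD finger, a module that binds methylated H3K4, or the CXXC zinc finger of Spp1. In the second set Spp1 carried a 3xHA tag and an anti-HA antibody was used, in cells labelled hht1Δ::HphMX/hht1Δ::HphMX and hht2Δ::KanMX4/hht1Δ::HphMX whose H3 came from a centromeric TRP1 plasmid with HHF2 and wild-type HHT2, HHT2K4R or HHT2R2A, so that the wild-type H3 control also lacked the labelled chromosomal H3 genes. These 3 H3 strains were sampled at 0, 2, 4 and 6 h in SPM with 2 replicates each, and their genotypes also list trp1-1/trp1-1 and ura3/ura3, lys2/lys2 with ho::LYS2/ho::LYS2, and heterozygous LEU2 and HIS4. In the competition set a copper-inducible GFP-tagged copy (pCUP1-1-yGFP-SPP1) was paired with SPP1-13xmyc-KanMX4, and Spp1-GFP (8 libraries) and Spp1-myc (10 libraries) were followed at 4.5, 5, 5.5, 6 and 6.5 h. The labels give the Spp1-myc samples of the competition set a genotype homozygous for the myc tag. The labels do not say that replicates were separate cultures, so the p-values measure the spread between these libraries only.

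The background is a shift of carbon source. Sporulating yeast lives on acetate, which enters the cell through plasma membrane carriers, is activated to acetyl-CoA and feeds the glyoxylate cycle and gluconeogenesis. Acetyl units made outside the mitochondrion can be moved into it as acetylcarnitine, through the carnitine shuttle of acetyltransferases and an inner membrane carrier. H3K4 methylation by the Set1 complex is known to mark the start of transcribed genes.

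ADY2 encodes the acetate permease that is needed for normal spore formation, and ATO2 and ATO3 encode related plasma membrane proteins. ADY2 (YCR010C) lies at chrIII:132273-133124 on the minus strand, ATO2 (YNR002C) at chrXIV:633008-633856 on the minus strand and ATO3 (YDR384C) at chrIV:1241204-1242031 on the minus strand. SFC1 (YJR095W) encodes the mitochondrial succinate-fumarate carrier, which links the glyoxylate cycle to the mitochondrion, and lies at chrX:609773-610741 on the plus strand. CRC1 (YOR100C) encodes the mitochondrial carnitine carrier and lies at chrXV:513295-514278 on the minus strand. CAT2 (YML042W, chrXIII:192788-194800), YAT1 (YAR035W, chrI:190193-192256) and YAT2 (YER024W, chrV:202192-204963), all on the plus strand, encode the carnitine acetyltransferases. OAC1 (YKL120W) encodes the mitochondrial oxaloacetate carrier, which is neither an acetate carrier nor a component of the carnitine shuttle, and lies at chrXI:217344-218318 on the plus strand. Coordinates are those of the coding regions in the R64 assembly. The coding regions run from 828 bp (ATO3) to 2772 bp (YAT2).

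The 62 peak lists held 56230 peaks. Lists outside the competition set had 642 to 2119 peaks, and those of the competition set had 87 to 705. Read counts are not part of the lists and the depth of each library is unknown. A missing peak says only that none was listed.

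Most of these genes had peaks in the first SPM libraries. At 0 h the same 8 genes, all but OAC1, were occupied in all 10 libraries, whichever subunit, tag or H3 allele was used. Over all coding genes, 8.6% (516 genes) had a peak in every 0 h library. In SPS, 3 of the 9 were occupied in the Bre2-myc, PHDΔ and CXXCΔ libraries and 4 in the Spp1-myc library, while 9.96% to 24.66% of all genes were. CRC1, CAT2 and YAT2 had no peak in any of 4 SPS libraries and a peak in every 0 h library, as did 46 coding genes in all (0.766%). ATO2 and YAT1 were occupied in all 4 SPS libraries, where 7.16% of coding genes were. ATO3 was occupied in 3 of them, ADY2 only in the PHDΔ library and SFC1 only in the Spp1-myc library.

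After 0 h the peaks mostly stayed. At 2, 4 and 6 h the number of occupied genes of the 9 ran from 3 to 9 in the 30 libraries outside the competition set, with a mean of 7.87 ± 1.432 (SD). In the same 30 libraries 7.75% to 32.84% of all genes were occupied, with a median of 15.09%. The lowest count, 3, belonged to wild-type H3 replicate 2 at 6 h, which also had the shortest list of these libraries, 642 peaks. The next lowest, 4, belonged to H3R2A replicate 2 at 4 h, with 907 peaks. YAT1 was the member occupied in all 30, as were 48 genes in all (0.8%), and it was occupied in every SPM and SPS library of this set, as were 31 genes (0.516%).

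**Figure D1:**
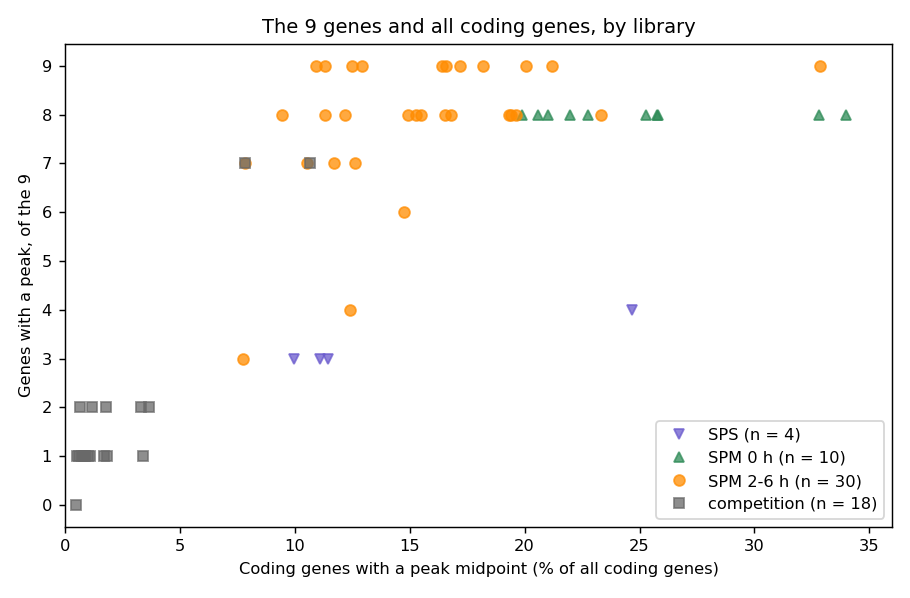
Number of the 9 genes with a peak (vertical axis) against the percent of 6002 coding genes with a peak (horizontal axis) in each of 62 libraries, with symbols for growth stage. The 10 SPM 0 h libraries all sit at 8, the 4 SPS libraries at 3 or 4, and the competition libraries at 0 to 7.

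In the 4 strains with 1 library per time, persistence could be read library by library but not tested. Spp1-myc held peaks at 0, 2, 4 and 6 h in 8 of the 9 genes, where 6.18% of all genes did so, and in 5 when only the higher-scoring 50% of each list was used. Bre2-myc held the same 8 (background 5.35%), and so did CXXCΔ (7.01%). The PHDΔ strain held 7 (4.92%), and ATO2 was the gene that it no longer had at 6 h. These are the same protein complex in related strains, so the 4 counts do not stand for 4 independent sets of genes.

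**Figure D2:**
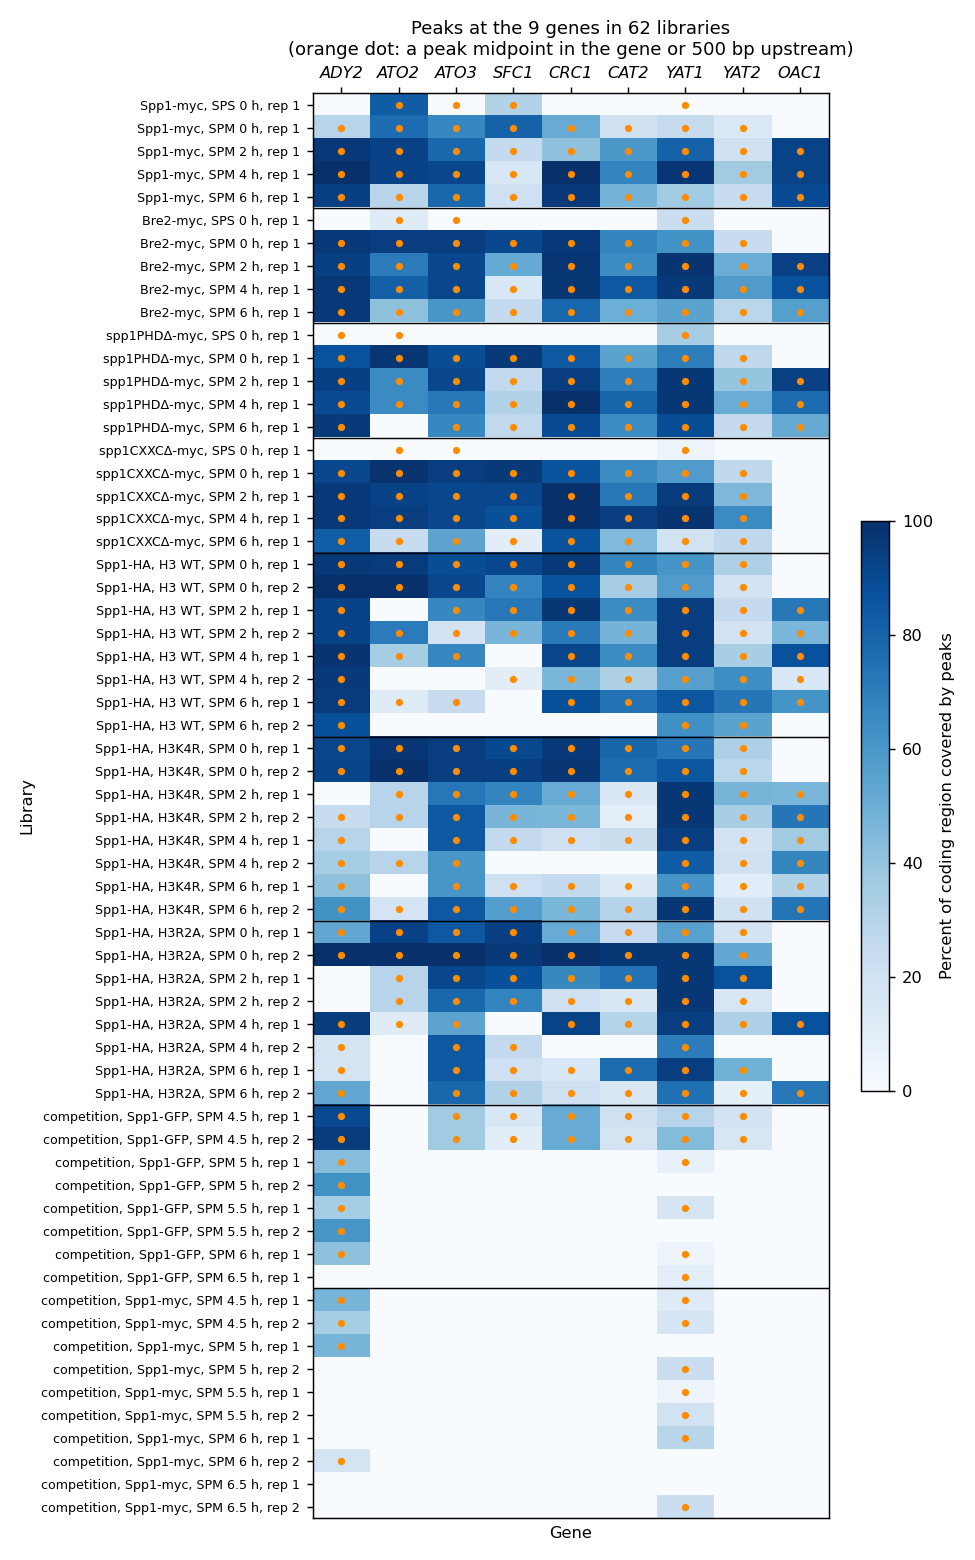
Percent of each coding region covered by peaks (blue shading, 0 to 100) for the 9 genes (columns) in the 62 libraries (rows), with an orange dot where a peak midpoint lay in the gene or within 500 bp upstream. OAC1 is blank in SPS, at 0 h and in the CXXCΔ rows, and the 8 other columns are filled in every SPM 0 h row.

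OAC1 was the 1 gene of the 9 with no peak at 0 h. It had no peak in any of 4 SPS and 10 SPM 0 h libraries, where the nearest peak midpoint in SPM was 3308 to 3356 bp downstream of its coding start, at least 2334 bp outside the gene and its 500 bp upstream window. At 2, 4 and 6 h it had a peak in all 3 libraries of Spp1-myc, of Bre2-myc and of PHDΔ. In Spp1-myc the coding region was covered by 92.4% at 2 h, 92.4% at 4 h and 89.2% at 6 h, and the midpoints were 459, 459 and 419 bp into the gene. In Bre2-myc the covered share was 93.4%, 87.3% and 56.5% at the same times, and in PHDΔ it was 93.5%, 77.0% and 51.4%. At 2 h the peak ran over chrXI:217353-218253 in Spp1-myc and over chrXI:217304-218254 in Bre2-myc, so it spanned nearly the whole gene in both. A peak at 2, 4 and 6 h with none in SPS or at 0 h was seen for 0.833% of coding genes in Spp1-myc, 1.05% in Bre2-myc and 0.716% in PHDΔ.

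The CXXCΔ strain had no OAC1 peak at any time. Its nearest peak midpoints at 2, 4 and 6 h were 3433, 3381 and 3335 bp from the coding start. Its lists at those times had 1366, 1138 and 1010 peaks. Those of Spp1-myc had 1163, 1295 and 1161, those of Bre2-myc 1121, 917 and 765, and those of PHDΔ 905, 772 and 798. The CXXCΔ lists were thus shorter than those of Spp1-myc at 4 and 6 h and longer at 2 h. They were longer than those of Bre2-myc and PHDΔ at each of these times. The part of list length was not tested. Of the 269 genes with a peak in every Spp1-myc, Bre2-myc and PHDΔ library at 2, 4 and 6 h, OAC1 was the 1 gene with no CXXCΔ peak at any of those times (0.372%). This count was made after the OAC1 values were known and rests on 1 library per strain and time, so it has no test.

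In the H3 strains OAC1 was again empty in all 6 libraries at 0 h and was occupied in 13 of 18 later ones. Fisher's exact test, two-sided, gave p = 0.00343 and an adjusted p (Benjamini-Hochberg over the 3501 genes with any peak) of 0.0464. In this test 0.686% of genes (24) were called lower at 0 h and 6.71% (235) higher. The gain of OAC1 peaks after 0 h was already known from these data when the gene was chosen, so this p is not independent support for it. The call is also at the edge of the threshold: with any 1 replicate series left out the adjusted p was 0.0819 to 0.242, and with every list shortened to the length of the shortest, 642 peaks, it was 0.0585. Mean OAC1 coverage was 0% at 0 h and 42.7% ± 33.1 (SD, n = 18) later (exact permutation test, adjusted p = 0.0428, with the same reservation), a call that was also lost with any 1 series left out (0.059 to 0.133). By strain, the later libraries with a peak were 5 of 6 for wild-type H3, 6 of 6 for H3K4R and 2 of 6 for H3R2A. The 5 wild-type libraries had 71.9%, 46.3%, 87.3%, 15.5% and 61.6% of the gene covered, and replicate 2 at 6 h had none. The 6 H3K4R libraries ran from 30.9% to 73.7%. The H3R2A peaks covered 87.3% of the gene in replicate 1 at 4 h and 71.9% in replicate 2 at 6 h, and both 2 h libraries were empty. Over all 4 times H3R2A had a peak in 2 of 8 libraries and wild-type H3 in 5 of 8, which Fisher's exact test did not separate (p = 0.315, adjusted p = 1.0, over 3183 genes, with 0% called in either direction).

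Over all SPM libraries outside the competition set OAC1 was empty in 10 of 10 at 0 h and occupied in 22 of 30 later. Only 5 coding genes (0.0833%) had no peak at 0 h and at least as many later. The others, named after their values were seen, were HIS1, an enzyme of histidine synthesis (23 of 30), MEP2, an ammonium permease (24 of 30), SAM3, a permease of S-adenosylmethionine (22 of 30), and AQY1, an aquaporin (26 of 30). Of the list of 28 other carriers described further on, YMC2 came near this course, with no peak in 4 SPS and 10 SPM 0 h libraries and a peak in 20 of 30 later ones, and YMC1 had none of 10 at 0 h and 10 of 30 later. Both encode mitochondrial carriers and were named after their values were seen. By the overlap of occupied libraries (Jaccard index over 62 libraries), the genes most like OAC1 were ISU2 at 0.741, HIS1 at 0.731 and LEU1 at 0.688.

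The acetate carriers ADY2, ATO2 and ATO3 began from different places. In SPS, ATO2 had an upstream peak in all 4 libraries, with midpoints 285 bp (Bre2-myc and CXXCΔ), 283 bp (Spp1-myc) and 275 bp (PHDΔ) before the coding start. The Spp1-myc SPS library also had an ATO2 peak 442 bp into the gene that covered 82.6% of it, and the Bre2-myc library a narrow one at 290 bp. ATO3 had only upstream peaks in SPS, 444 bp before the start in Spp1-myc and Bre2-myc and 469 bp before it in CXXCΔ. The single ADY2 peak of SPS, in PHDΔ, lay 487 bp upstream and was 101 bp wide, the narrowest width in the lists.

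At 0 h the peaks of these 3 genes lay inside the coding region, apart from a second ADY2 peak 427 bp upstream in Bre2-myc. Taking the midpoint nearest the start in each library, ATO2 midpoints were 366 to 615 bp from the start, with a median of 408 bp. ATO3 midpoints were 306 to 406 bp from it (median 356 bp) and ADY2 midpoints 199 to 397 bp (median 350 bp). This nearest midpoint moved from upstream in SPS to coding at 0 h for ATO2 and ATO3 in Spp1-myc, of the 4 genes of the 9 occupied in both, and the same held for 12.2% of all genes occupied in both. In Bre2-myc it moved for ATO2 and ATO3, of 3 (background 47.9%), in PHDΔ for ADY2 and ATO2, of 3 (43.6%), and in CXXCΔ for ATO2, ATO3 and YAT1, of 3 (45%). In the last 3 strains the move was therefore common among all genes. In Spp1-myc and Bre2-myc, ATO2 already had a coding peak in SPS beside the upstream one, and so did YAT1 in CXXCΔ, 401 bp into the gene. In these cases the move of the nearest midpoint meant that no upstream peak was listed at 0 h, not that a first coding peak appeared. Pooling the 9 genes, the nearest midpoint was upstream in 10 of 13 gene and library pairs in SPS, 1 of 80 at 0 h and 19 of 236 at 2 to 6 h, against 42.1%, 7.6% and 12.4% of such pairs over all genes. Pairs of the same gene or library share their source, and no test was made on them.

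**Figure D3:**
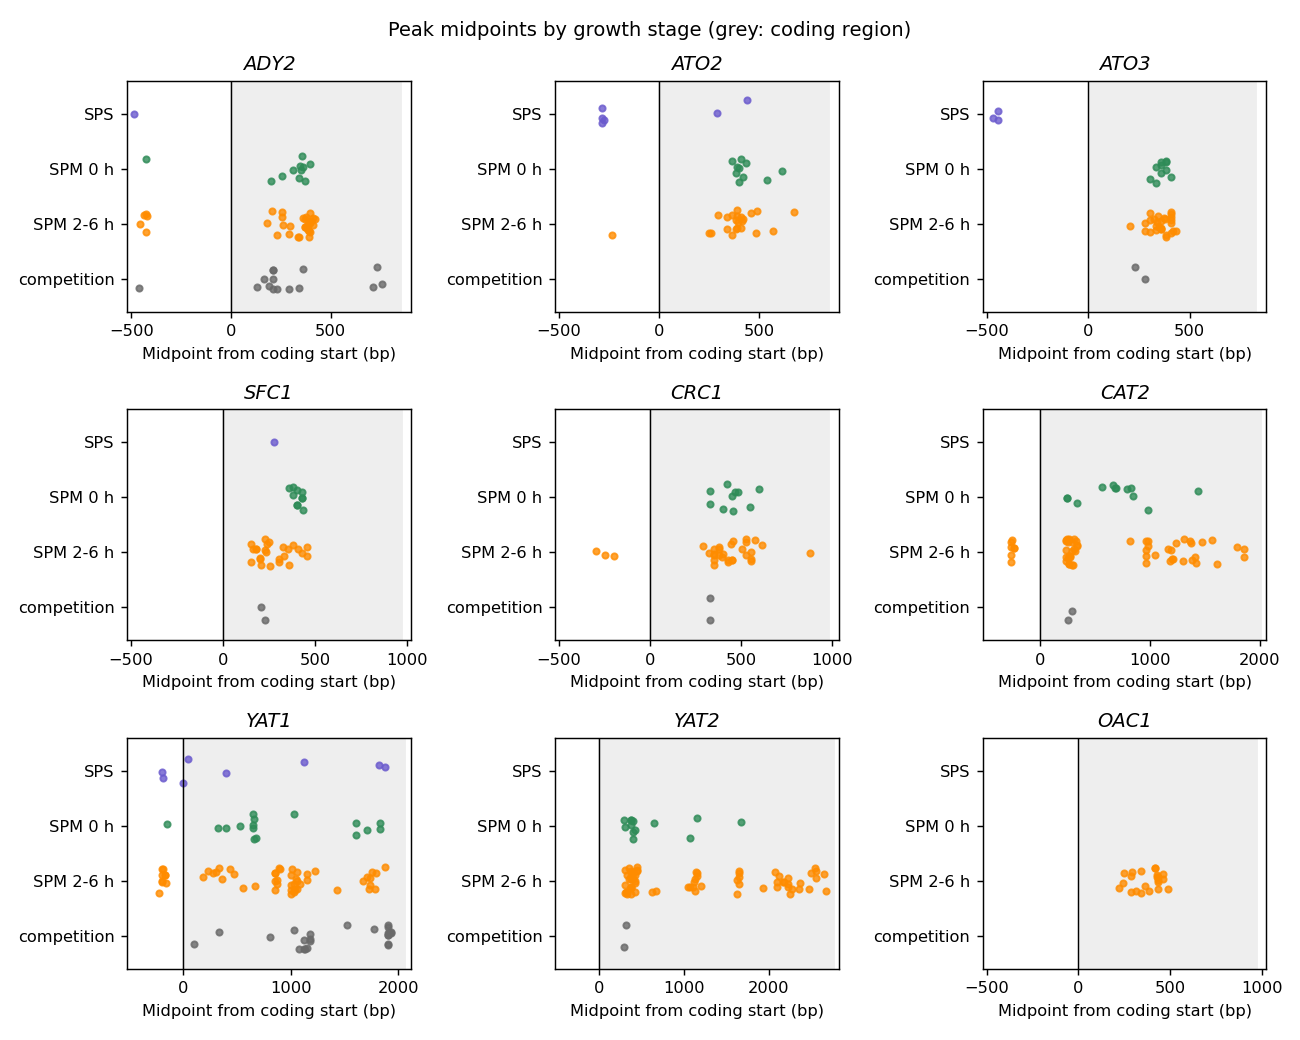
Midpoint of every peak assigned to each gene, in bp from the coding start (horizontal axis, negative upstream), by growth stage (rows within each panel), with the coding region in grey and the vertical scatter added for visibility. ATO2 and ATO3 points of SPS lie 275 to 469 bp upstream apart from 2 ATO2 points in the coding region, and the 0 h points of both genes lie inside it.

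Between 0 h and later times in the H3 strains, the stretch of ATO2 under Spp1-HA shrank. Its coverage at 0 h was 95.6% and 100% in wild-type H3, 97.6% and 100% in H3K4R, and 93.2% and 100% in H3R2A. At later times it was 0% to 70.8%, with a median of 11.9% over 18 libraries. Every 0 h library lay above every later one. The mean was 97.7% ± 2.85 (SD, n = 6) at 0 h and 16.4% ± 19.4 (SD, n = 18) later, a difference of 81.3 percentage points that an exact permutation test within strain, two-sided, called (adjusted p = 0.00226 over 3280 genes). Coverage was called higher at 0 h for 15.2% of genes and lower for 1.19%, and groups did not overlap, higher at 0 h, for 1.19%. The median difference over all tested genes was 2.2 percentage points, a value that includes genes with little coverage at 0 h, which could not fall far. The share of libraries with an ATO2 peak, 6 of 6 at 0 h and 10 of 18 later, was not separated (adjusted p = 0.263 by Fisher's exact test).

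In the myc series the lowest ATO2 values of SPM came at 6 h. Coverage at 0, 2, 4 and 6 h was 76.7%, 93.2%, 93.2% and 29.6% in Spp1-myc. In Bre2-myc it was 94.3%, 70.8%, 81.6% and 41.3%. In PHDΔ it was 97.5%, 65.0%, 64.9% and 0%, and in CXXCΔ 98.7%, 92.9%, 94.3% and 23.7%. With 1 library per time these courses have no test.

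ATO3 coverage in the H3 strains was 84.7% to 100% at 0 h and 0% to 90.7% later. The means were 92.1% ± 5.37 (SD, n = 6) and 60.8% ± 29.9 (SD, n = 18), and the exact permutation test called the difference (adjusted p = 0.00781), although not without the replicate 2 series of wild-type H3 (adjusted p = 0.0689). The lowest later values were in wild-type H3, with 66.5% and 18.2% at 2 h, 66.5% and 0% at 4 h and 24.3% and 0% at 6 h. Both values of 0% were of replicate 2, whose lists had 780 peaks at 4 h and 642 at 6 h. Those of replicate 1 had 1369 and 1414, and the part of list length was not tested. In the mutants every later library kept at least 54.5%. Over all times H3K4R had 79.6% of ATO3 covered and wild-type H3 44.3%, a difference that did not pass the adjusted exact permutation test (p = 0.0108, adjusted p = 0.3; 0% of 3170 genes called, 355 at an unadjusted p under 0.05). The change from 0 h to later differed between H3K4R and wild type by 40.4 percentage points and between H3R2A and wild type by 46.6, and neither passed once adjusted (exact permutation of strain labels within time, p = 0.0509 and 0.037, adjusted p = 0.605 and 1.0).

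ADY2 coverage differed between the H3 alleles by its values, but no adjusted test was passed. With wild-type H3 the gene was covered at every time, by 96.6% and 100% at 0 h, 92.8% and 92.7% at 2 h, 98.2% and 95.9% at 4 h, and 95.7% and 88.1% at 6 h. H3K4R began at 91.1% and 91.8% and then had 0% and 23.6% at 2 h, 29.5% and 35.3% at 4 h, and 41.2% and 62.4% at 6 h. From 2 h on, every H3K4R library lay below every wild-type one. Over the 6 later libraries of each strain the means were 32.0% ± 20.6 and 93.9% ± 3.51 (SD), and non-overlap in this direction was seen for 0.693% of 2741 genes. The exact permutation test gave p = 0.00926 and an adjusted p of 0.237. With all 4 times, 8 libraries against 8, the means were 46.9% ± 32.6 and 95.0% ± 3.71 (SD), with an exact permutation p of 0.00154 and an adjusted p of 0.267. On simulated data, where 200 genes were given a shift together, the test recovered 100% of them. That does not show that a single gene could pass. Labels within time can be arranged in 1296 ways with all 4 times and in 216 ways from 2 h on. This limits how low p can be. At the p-values above, 1 gene alone cannot pass adjustment over 3170 or 2741 genes, so no conclusion was drawn from the missing calls.

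H3R2A libraries had 52.9% and 100% of ADY2 covered at 0 h, 0% in both at 2 h, 95.0% and 17.7% at 4 h and 17.7% and 52.9% at 6 h. The replicates disagreed at 0 h and at 4 h, and the later libraries overlapped wild type because of replicate 1 at 4 h. The mean of 42.0% over 8 libraries against 95.0% for wild type gave an exact permutation p of 0.00772 and an adjusted p of 0.535 (0% of 2986 genes called, 202 at an unadjusted p under 0.05). Both mutants were compared with the same 8 wild-type libraries.

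The ADY2 midpoints lay nearer the coding start in both mutants than in wild type, again without passing once adjusted. The midpoint was 263 ± 67.3 bp from the start in H3K4R (SD, n = 7 libraries with a peak) and 383 ± 22.7 bp in wild type (SD, n = 8). The difference of -120 bp had an exact permutation p of 0.00154 and an adjusted p of 0.37, with 0% of 759 genes called and 75 at an unadjusted p under 0.05. In H3R2A the midpoint was 300 ± 46.3 bp from the start (SD, n = 6), with an exact permutation p of 0.00926 and an adjusted p of 0.804 (0% of 608 genes called, 33 unadjusted). A narrower peak that keeps its upstream edge has an earlier midpoint, so position and coverage are not separate measures here. Presence of an ADY2 peak did not differ by the test, 7 of 8 in H3K4R and 6 of 8 in H3R2A against 8 of 8 in wild type (adjusted p = 1.0 for both by Fisher's exact test; 0% of 3382 and of 3183 genes called, 197 and 87 unadjusted).

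Pooling the H3 strains, ADY2 coverage was 88.7% ± 18.0 (SD, n = 6) at 0 h and 52.2% ± 38.1 (SD, n = 18) later. The exact permutation test called it (adjusted p = 0.0267), but not without H3K4R replicate 1 (0.107), H3K4R replicate 2 (0.0667) or H3R2A replicate 2 (0.148). The change from 0 h to later differed from wild type by -55.0 percentage points in H3K4R and -41.5 in H3R2A. Neither passed once adjusted (exact permutation of strain labels within time, p = 0.0139 and 0.245, adjusted p = 0.459 for H3K4R). In the myc series, where H3 is not mutated, ADY2 coverage at 2, 4 and 6 h was 94.1% to 100% in Spp1-myc, 94.0% to 96.7% in Bre2-myc, 89.7% to 96.1% in PHDΔ and 82.3% to 96.7% in CXXCΔ. At 0 h it was 87.2% to 96.7% in the last 3 of these strains and 29.5% in Spp1-myc.

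**Figure D4:**
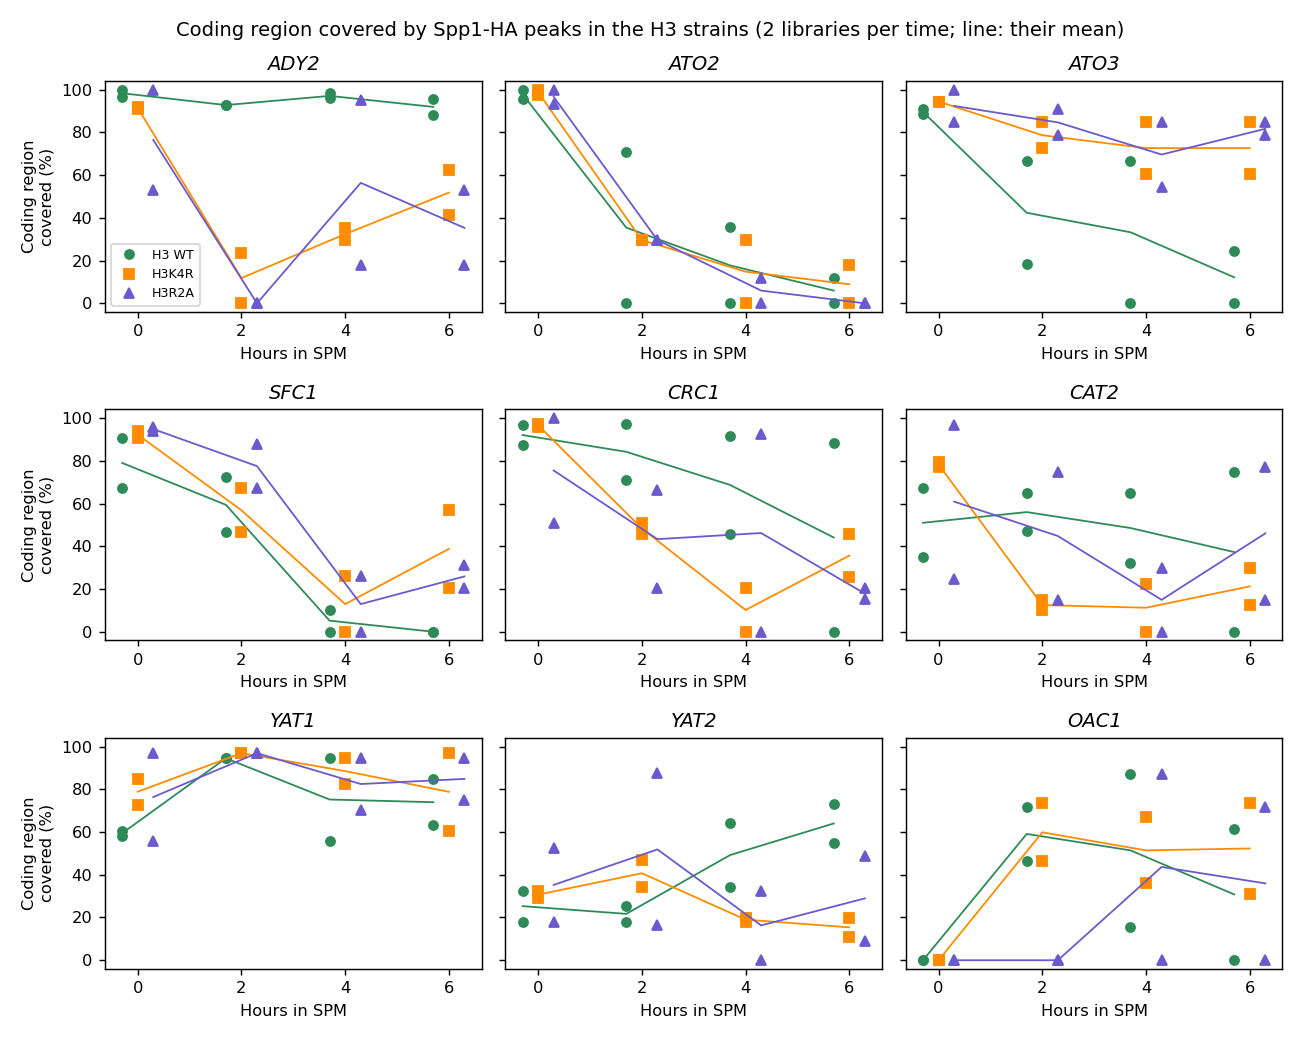
Percent of each coding region covered by Spp1-HA peaks (vertical axis) against hours in SPM (horizontal axis) for wild-type H3 (circles), H3K4R (squares) and H3R2A (triangles), with 2 libraries per strain and time as points and their mean as a line. ADY2 points of wild-type H3 stay between 88.1% and 100% at every time, and ATO2 points of all 3 strains are at 93.2% or more at 0 h and at 70.8% or less later.

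SFC1 coverage fell between 0 h and later times in the H3 strains. It was 67.2% to 95.9% at 0 h (median 92.3%) and 0% to 87.8% later (median 25.9%). Values overlapped only through the 2 h libraries, which had 46.5% to 87.8%, and no library at 4 or 6 h exceeded 56.9%. The means were 88.7% ± 10.7 (SD, n = 6) and 32.2% ± 28.9 (SD, n = 18; exact permutation test, adjusted p = 0.00332). In the myc series SFC1 coverage went from 80.5% at 0 h to 25.9% at 2 h in Spp1-myc, from 90.8% to 51.7% in Bre2-myc and from 95.9% to 25.9% in PHDΔ. The CXXCΔ strain still had 90.8% at 2 h and 87.8% at 4 h, and 10.4% at 6 h.

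The SFC1 midpoints at 0 h were 359 to 433 bp from the start in 10 libraries, and at 2 to 6 h 152 to 454 bp in 25 libraries. In the H3 strains the difference of 108 bp had an exact permutation p of 0.0204 and an adjusted p of 0.256, in a test that called 0.945% of 952 genes. In the 8 libraries outside the competition set in which SFC1 was not occupied, the nearest midpoint was 571 to 696 bp upstream, just outside the 500 bp window. Whether these libraries counted as occupied therefore depended on the window, but in all of them 0% of the SFC1 coding region was covered. No SFC1 peak midpoint in any library lay in the window itself.

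The carnitine shuttle genes CRC1 and CAT2 were occupied in exactly the same 39 of 62 libraries, and no other coding gene had that pattern. YAT2 was the next nearest to both, with a Jaccard index of 0.951. They share no peak: CRC1 is on chromosome XV and CAT2 on chromosome XIII.

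CRC1 peaks were wide for the gene. At 0 h 1 peak of 501 to 1151 bp lay over the 984 bp coding region in each library, with midpoints 328 to 599 bp from the start. Coverage in the H3 strains had a mean of 88.1% ± 18.7 (SD, n = 6) at 0 h and 44.3% ± 33.7 (SD, n = 18) later (exact permutation test, adjusted p = 0.0382), and the call was lost without H3K4R replicate 1 (0.14), H3K4R replicate 2 (0.122) or H3R2A replicate 2 (0.157). With wild-type H3, replicate 1 kept 97.2%, 91.6% and 88.2% at 2, 4 and 6 h while replicate 2 went from 71.2% to 45.8% to 0%. In the myc strains coverage at 6 h was still 96.6% in Spp1-myc, 79.2% in Bre2-myc, 89.3% in PHDΔ and 86.5% in CXXCΔ.

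CAT2, the acetyltransferase of mitochondria and peroxisomes, had few wide peaks at 0 h and more, narrower ones later. At 0 h 12 peaks in 10 libraries had a median width of 1200 bp, and the midpoint nearest the start had a median of 674 bp. At 2 to 6 h 59 peaks in 27 libraries had a median width of 401 bp, 22 of those libraries had more than 1, and the nearest midpoint had a median of 255 bp. In Spp1-myc at 4 h, for example, CAT2 had peaks 262 bp upstream, 238 bp into the gene and 1213 bp into it. In the H3 strains the nearest midpoint was 647 ± 291 bp from the start at 0 h (SD, n = 6) and 272 ± 32.8 bp later (SD, n = 15). The difference of 375 bp had an exact permutation p of 0.00108 but did not pass over all 952 genes (adjusted p = 0.0734). Coverage did not pass either, with means of 63.4% and 32.5% (exact permutation test, adjusted p = 0.127), and it became a call without H3R2A replicate 1 (0.0368).

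For YAT1, the acetyltransferase of the outer mitochondrial membrane, mean coverage in the H3 strains was 71.5% at 0 h and 85.8% later (exact permutation test, adjusted p = 0.179). With every list shortened to 642 peaks the exact permutation test called the difference (adjusted p = 0.0401). At 2 h its coverage was 94.5% to 96.9% in all 6 H3 libraries, and it was 80.5% in Spp1-myc, 98.4% in Bre2-myc, 96.9% in PHDΔ and 95.7% in CXXCΔ, in each case above the 0 h library of the strain or equal to it. At 6 h YAT1 coverage was 36.4% in Spp1-myc, 19.5% in CXXCΔ, 54.8% in Bre2-myc and 88.5% in PHDΔ. Single peaks of up to 2301 bp covered the 2064 bp gene, and 2 of its 102 peaks also had their midpoint in SWH1 or its upstream window.

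YAT2, the third acetyltransferase, was covered only in part. In the H3 strains coverage was 18.1% to 52.4% at 0 h and 0% to 87.4% later, with means of 30.4% and 34.1% (exact permutation test, adjusted p = 1.0). Its first peak stood at nearly the same place throughout, with the nearest midpoint at a median of 388 bp from the start at 0 h and 375 bp at 2 to 6 h. Peaks farther into this long gene were seen in more of the later libraries: 3 of 10 libraries had more than 1 peak at 0 h and 18 of 29 did at 2 to 6 h, with up to 5. Bre2-myc at 4 h had YAT2 midpoints 448, 1148, 1623, 2098 and 2673 bp into the gene. The last of these also lay in the upstream window of GCD11, as did a midpoint at 2650 bp in H3K4R replicate 2 at 4 h.

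In the competition set these genes were mostly empty, as were most genes. Spp1-GFP at 4.5 h had 7 of the 9 in both replicates, when 7.85% and 10.66% of all genes were occupied. ATO3, SFC1, CRC1, CAT2 and YAT2 had a Spp1-GFP peak in both 4.5 h libraries and in no later one, as did 194 coding genes (3.23%), of 416 (6.93%) with a peak in both 4.5 h libraries. The lists had 530 and 705 peaks at 4.5 h and 129 to 260 afterwards, so the loss went with shorter lists, and the part of list length in it was not tested. ADY2 kept a Spp1-GFP peak in all 6 libraries from 4.5 to 5.5 h, with coverage of 89.9% and 95.5% at 4.5 h, 43.2% and 62.6% at 5 h and 35.3% and 60.3% at 5.5 h. The Spp1-myc protein had ADY2 in 3 of 6 libraries at those times, and the difference did not pass (Fisher's exact test, p = 0.182, adjusted p = 0.86; 0% of 870 genes called, 29 at an unadjusted p under 0.05). YAT1 was occupied in 4 of 6 Spp1-GFP and 5 of 6 Spp1-myc libraries (Fisher's exact test, adjusted p = 1.0). ATO2 and OAC1 had no peak in any of the 18 competition libraries.

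Other carriers were described from a list of 28. Of these carriers of organic acids, nucleotides, cofactors and carnitine, 9 were occupied in every 0 h library and 5 in every SPS library. The most often occupied were MIR1, the phosphate carrier (47 of 62 libraries), MPC2 (46) and MPC3 (45), subunits of the pyruvate carrier, and PET9, the main ADP/ATP carrier (45). In the H3 strains 2 of the 21 carriers tested were called higher at 0 h by occupancy and 0 lower, near the 6.71% and 0.686% of all genes, namely MPC1, the shared pyruvate carrier subunit (6 of 6 against 0 of 18 libraries, that is 100% against 0%, adjusted p = 0.00289), and LEU5, a carrier linked to coenzyme A (83.3% against 5.56%, adjusted p = 0.0212), both by Fisher's exact test. By coverage 7 of 19 were called higher at 0 h and 0 lower, beside 15.2% and 1.19% of all genes. ODC1, which carries oxodicarboxylates, had 87.6% covered at 0 h and 24.5% later, and JEN1, the lactate permease, 98.8% and 59.2% (exact permutation test, adjusted p = 0.00226 and 0.0135). The median difference in coverage was 14.5 percentage points over the 19 carriers, 31.3 over the 9 genes described here and 2.2 over all genes. Over the 20 genes of the list described next it was 9.9. These values are not matched for coverage at 0 h, and a gene with little coverage then could not fall far. The median number of SPM 0 h libraries with a peak, of 10, was 10 for the 9 genes, 3.5 for the 28 carriers and 0 for all coding genes. It was also 10 for the 20 genes of the list described next, so this value was not particular to the 9 genes.

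A list of 20 genes covered acetate activation, the glyoxylate cycle, peroxisomal beta-oxidation and gluconeogenesis. In every 0 h library 15 of them had a peak, and 9 had one in all 30 later libraries. ACO1, aconitase, had a peak in 58 of 62 libraries, ACS1, acetyl-CoA synthetase, in 57, CIT1, citrate synthase, in 52 and MDH2, the cytosolic malate dehydrogenase, in 51. By occupancy 2 of 20 were called higher at 0 h and 0 lower, again near the 6.71% and 0.686% of all genes, namely FBP1, fructose bisphosphatase (100% against 22.2% of libraries), and POT1, the peroxisomal thiolase (100% against 27.8%), with adjusted p of 0.028 and 0.0464 by Fisher's exact test. By coverage 9 of 20 were called higher at 0 h and 0 lower, beside the same 15.2% and 1.19%. FBP1 fell from 93.7% to 3.68% and MDH3, the peroxisomal malate dehydrogenase, from 87.9% to 13.0% (exact permutation test, adjusted p = 0.00226 for both).

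By peak width and score the 9 genes differed among themselves. The median width over all stages ran from 351 bp (ATO2) to 851 bp (CRC1). The score is the authors' own and was used only to rank peaks within a list. The median percentile of score within the list was 88.8 for ADY2, 88.0 for CRC1 and 86.4 for ATO3, and 59.8 for SFC1, the lowest of the 9. For ATO2 it was 93.2 at 0 h and 55.2 at 2 to 6 h, and for SFC1 88.5 and 46.7, while for ATO3 it was 91.0 and 85.8. OAC1 peaks, all from 2 to 6 h, had a median percentile of 83.2.

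By the same overlap of occupied libraries, the genes most like ADY2 were ZEO1 (0.855), MIX17 (0.852) and CAR1 (0.836), for ATO2 FIT3 (0.872), SDH1 (0.854) and HMX1 (0.85), and for ATO3 GOS1 and INH1 (0.977 each) and HTA1 (0.956). For SFC1 they were HHF1 and NPC2 (0.905 each) and OPI1 (0.902), and for YAT1 UBI4 (0.933), ACO1 (0.917) and SSA1 (0.915). For YAT2 they were AGP1 (0.953), CAT2 and CRC1 (0.951 each), and for CRC1 and CAT2, after each other and YAT2, HHF1 (0.929). These indices share libraries and list lengths and are given as a description.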

How the data were processed

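Per the submitters' processing notes, the genome build was sacCer3 and the tools included BWA and deepTools (versions not given). How peaks were called, at which threshold and against which control is not given in the sources used here. For 62 of 64 samples the authors deposited a peak list with positions, widths and scores, the score being a fraction from 0.5 to 1. The input and untagged samples were not analysed here. Spp1 of the H3 strains was taken as HA-tagged, as in genotype and antibody, although descriptions call it myc. The label 0 h is also on the SPS samples, which were separated from SPM by medium.

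Gene positions came from the RefSeq R64 table, with strand read from systematic names; 2787 peaks on chrXVII were not assigned. Tests (Python 3.11.15, SciPy 1.17.1) used a threshold of 0.05, Benjamini-Hochberg adjustment over all genes with a peak in the comparison, and, for position, genes with peaks in at least 4 libraries per side. Position and coverage were tested by exact permutation of labels within time or, for time, within strain. Tests were checked on simulated data: occupancy recovered 90.0% of 200 changed genes for H3K4R, position 37.5% and coverage 100.0%.

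The 9 genes, the 2 gene lists and the named genes (all 9, list genes that passed a test or had most libraries, and the 3 genes of highest Jaccard index) were chosen with earlier results of these data known. The gain of OAC1 peaks and their absence in CXXCΔ were among those results. Coverage, its alternatives and the test of differing change between strains were added after the data were seen. Replicate numbers were not treated as pairs. Promoter and protein sequences were not used here.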

Additional observations from a re-analysis of the deposited data

How the results depend on the processing

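Of the alternatives for single genes, 704 of 744 kept their direction and side of the threshold, 24 lost a call, 3 gained one and 13 changed direction. For 0 h against later times, genes called by occupancy numbered 259, and 160 with the higher-scoring 50% of each list, 98 with lists of equal length, 73 with a replicate block and 107 to 147 without 1 replicate series. By position 9 were called, and 1 with the higher-scoring part, 0 with a replicate block and 0 to 0 without 1 series. By coverage 539 were called, and 279 with the higher-scoring part, 227 with equal lengths, 550 with a replicate block and 354 to 565 without 1 series. OAC1 occupancy lost its call under the higher-scoring part (adjusted p = 0.125), equal lengths (0.0585), the replicate block (0.0649) and every series left out, and held with windows of 250 or 1000 bp, any overlap and the exact permutation test. ATO2 occupancy was called with the higher-scoring part (0.0271). ATO2 and SFC1 coverage held under all 10 alternatives, and OAC1 coverage, called in the report's fit (exact permutation test, adjusted p = 0.0428), under 2. The replicate block changed no other call among the 9 genes. Replicate differences correlated at -0.042 to 0.21 between strains or tagged proteins at the same time, so replicate numbers hardly paired samples there. These correlations cannot show whether libraries of a series at different times belong together, which was not tested. The test of 0 h against later times counted each library separately, so its p-values do not allow for such a link.

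With the higher-scoring part Spp1-myc held 5 of the 9 genes at all 4 times, not 8, and the H3 strains had 6.67 occupied genes per library at 2 h and 5.17 at 4 h, not 8.0 and 6.83; with equal lengths the 2 h value was 6.83. Differences that changed sign, none of them called, were for H3K4R the occupancy of ATO2 (-12.5 points with the higher-scoring part and without H3K4R replicate 2, in a range of -12.5 to 37.5 points over series left out) and the position of ATO3 (-8.1 bp with the higher-scoring part). For H3R2A they were the positions of SFC1 (38.8 bp) and YAT1 (-305.1 bp) with the higher-scoring part, of CAT2 without H3R2A replicate 2 (-95.6 bp) or wild-type replicate 2 (-1.5 bp) and of YAT2 without H3R2A replicate 2 (-18.6 bp, in a range up to 40.5 bp). For 0 h they were the positions of YAT1 (-73.7 bp) and YAT2 (-79.4 bp) with the higher-scoring part and the coverage of YAT2 without wild-type replicate 2 (1.1 points) or H3R2A replicate 1 (3.2 points, in a range from -13.2). In the competition set it was the occupancy of YAT1 without Spp1-GFP replicate 2 (16.7 points, in a range from -50.0). The cause of these changes was not tested. Depth is unknown, and small differences in presence cannot pass with 8 libraries per side.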
